A study of Rattus norvegicus with 14 samples.

Results

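The rows examined here are those of the noncoding RNA (ncRNA) table of rat whole blood that the search for ribosomal and mitochondrial RNA returned. A row was taken when one of its name fields read rRNA, Mt_rRNA or Mt_tRNA, or when its name began with 5S_rRNA or 5_8S_rRNA. The search found 287 of 9199 rows, and all 287 were named 5S_rRNA. No row carried the labels Mt_rRNA, Mt_tRNA or rRNA, and none was named 5_8S_rRNA, so what follows describes 5S rRNA rows and not mitochondrial RNA. Each of the 287 rows has its own Ensembl gene identifier, and no chromosome position or row length is given with the values. None of them could be matched by name to the RefSeq gene table of assembly GRCr8, where Rn5s is 120 bases long, and no 5S sequence was at hand to print.

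Adult male Sprague-Dawley rats, 85 to 90 days old, were given 4 subcutaneous injections at intervals of 2 h in a room at 23°C. The 7 control animals received saline, and the 7 AMPH hyper animals received amphetamine at 5, 7.5, 10 and 10 mg/kg and became hyperthermic, with cooling on ice when needed. Blood of both groups was taken by cardiac puncture 3 h after the last injection, so that amphetamine and raised body temperature cannot be told apart in this comparison. The libraries were made from small RNA, with inserts of 15 to 35 bases, and each library is 1 animal. Control animal 3 is placed in the AMPH hyper group by another list of the study and was used as labelled. Counting it as AMPH hyper called 0 of the 5S rows, and its effect on the values below is given in the closing section.

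5S rRNA is the smallest RNA of the large ribosomal subunit. It is made by RNA polymerase III, apart from the other rRNAs, which RNA polymerase I makes as a single precursor. Mammalian genomes hold clustered 5S genes and many scattered 5S-related copies, a large share of them pseudogenes, so that annotations list many near-identical 5S entries. A library of short inserts holds pieces of 5S rRNA, not the whole molecule. A short read can fit several copies equally well, and how such reads were assigned is not given in the sources used here, so values of near-identical rows are uncertain as values of single genes. If reads were counted on every copy they fit, the sum over rows counts a read more than once, and the highest row is then a lower limit on the 5S reads of a library.

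The reads counted on ncRNA rows numbered 1346419 to 4417124 per library. The 4 erythroid marker miRNAs (miR-451, miR-144 and miR-486) took 52.0 to 66.5% of mature miRNA reads in the 14 libraries, the 3 myeloid markers (miR-223 and miR-142) 0.272 to 2.00% and the lymphoid marker miR-150-5p 0.0125 to 0.261%. The 4 muscle markers were at 8.67e-05 to 0.0131% and the liver marker miR-122-5p at 0.000859 to 0.0266%. Every group of markers overlapped between control and AMPH hyper animals, but medians differed. The muscle median was 0.00112% in control and 0.00337% in AMPH hyper animals, and the lymphoid median 0.104% and 0.0567%. For erythroid, myeloid and liver markers the medians were 55.9, 0.694 and 0.00704% in control and 60.7, 0.616 and 0.00458% in AMPH hyper animals. The part of the markers in the 5S values was not tested.

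5S rRNA was present in every library, and its share of the ncRNA reads differed widely among animals of the same group. The summed reads of the 287 rows made up 13.8, 5.77, 6.59, 18.5, 2.37, 3.32 and 12.97% of the ncRNA reads in control animals 1 to 7. In AMPH hyper animals 1 to 7 the sum made up 6.79, 3.87, 8.30, 4.08, 3.03, 4.86 and 18.0%. Control animals 1, 4 and 7 and AMPH hyper animal 7 stood above the other 10 animals, and both groups reached from near 3% or less to about 18%. The control mean was 9.04% ± 6.07 (SD, n = 7) and the AMPH hyper mean 6.99% ± 5.18 (SD, n = 7). The log2 ratio of the shares, AMPH hyper over control, was -0.30 with an SE of 0.53, which is smaller than the spread among animals. Without the 4 libraries highest in the leading row the log2 ratio was 0.22. Those 4, control 1, 4 and 7 and AMPH hyper 7, were taken out for high values, so a shift upward follows from the choice. The divisor of these shares was itself uneven, since the largest ncRNA row took 18.6 to 60.9% of the reads, with 60.9% in control 5. Without that row the log2 ratio was -0.216. These sums are given as a description and were not tested.

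**Figure D1:**
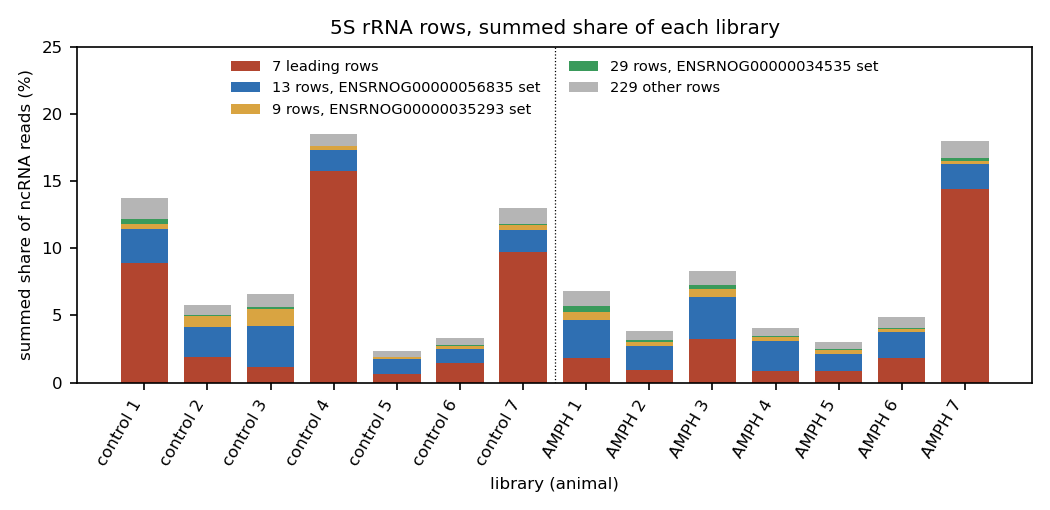
Stacked bars show the summed share of ncRNA reads (percent, vertical axis) of the 5S rRNA rows in each of the 14 libraries (horizontal axis), with the dotted line between control and AMPH hyper animals and colours for sets of rows that varied together. The 7 leading rows (red) reach 8.92% or more in control 1, 4 and 7 and AMPH hyper 7 and stay at 3.28% or less in the other libraries, while the 13 rows of the second set (blue) lie between 1.09 and 3.10% in all of them.

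The reads were unevenly divided among the rows. The mean normalized count over the 14 libraries ranged from 3.36 to 431317, with a median of 127. A normalized count is the reads of a row over the upper quartile of all counts in its library, times 1000, and 1 read was worth 6.29 to 47.6 of these units. A mean of at least 10000 was found for 38 rows, one of 1000 to 10000 for 51, one of 100 to 1000 for 71 and one under 100 for 127. The 20 highest rows held 63.9 to 95.4% of the 5S reads of a library. Reads were found in all 14 libraries for 160 rows, in 8 to 13 for 88 and in 1 to 7 for 39. No row was without reads, and 3 had at most 3 reads in total. Between 209 and 283 rows had reads in a given library. Identical values in all 14 libraries were found for 10 pairs of 5S rows.

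The highest row was ENSRNOG00000055067 (5S_rRNA), which was the 12th highest of all ncRNA rows by mean normalized count, and 8 of the 25 highest ncRNA rows were 5S rows. Because row lengths are not given, these orders are of counts and not of levels per length. Row ENSRNOG00000055067 alone took 1.59, 0.518, 0.462, 2.46, 0.221, 0.322 and 1.56% of the ncRNA reads in control animals 1 to 7 and 0.552, 0.318, 0.797, 0.352, 0.256, 0.487 and 2.28% in AMPH hyper animals 1 to 7. The same 4 animals, control 1, 4 and 7 and AMPH hyper 7, had the highest shares. By normalized count AMPH hyper 3 (511238) stood above control 7 (482000). In normalized counts the row ran from 102167 to 1679140 in control animals, with a median of 333653, and from 166379 to 632824 in AMPH hyper animals, with a median of 227314. The groups overlapped, and the log2 fold change, on the scale of log2(normalized count + 1), was -0.31 (SE 0.68, limma, adjusted p = 0.920). The exact permutation test over the divisions of the 14 animals gave p = 0.626, two-sided. Without control animal 4 the log2 fold change was 0.07, so that 1 control animal set its sign.

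The next 4 rows by mean, ENSRNOG00000035103, ENSRNOG00000055521, ENSRNOG00000055727 and ENSRNOG00000060018, followed the same animals. Row ENSRNOG00000035103 had a mean normalized count of 470250 ± 559121 (SD, n = 7) in control animals and 210849 ± 186497 (SD, n = 7) in AMPH hyper animals, and the SD of the control animals exceeded their mean. Its log2 fold change was -0.62 (SE 0.74, limma, adjusted p = 0.846). For the other 3 the log2 fold changes were -0.64 (ENSRNOG00000055521), -0.71 (ENSRNOG00000055727) and -0.46 (ENSRNOG00000060018), with exact permutation p of 0.477, 0.450 and 0.617, two-sided. In each of the 5 rows the control median was exceeded in 2 of 7 AMPH hyper animals. Without the 4 libraries highest in the leading row, the log2 fold changes of these 5 rows turned to values between 0.36 and 0.72. These were also not past the threshold. The 4 were control 1, 4 and 7 and AMPH hyper 7, taken out for high values, so the shift upward follows from the choice.

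**Figure D2:**
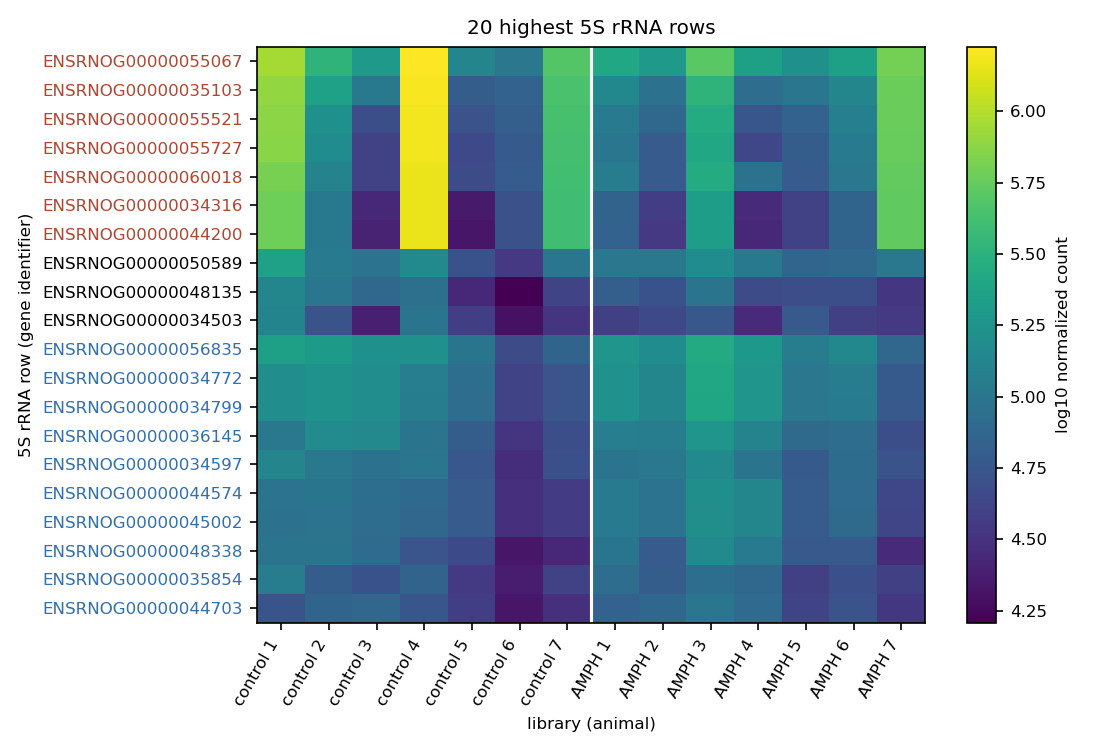
Colours show log10 of the normalized count of the 20 highest 5S rRNA rows (vertical axis, gene identifiers) in the 14 libraries (horizontal axis, white line between the groups), with the names of the 7 leading rows in red and those that follow ENSRNOG00000056835 in blue. Control 1, 4 and 7 and AMPH hyper 7 are bright over the 7 leading rows. In ENSRNOG00000056835, the first blue row, AMPH hyper 3 (278238) and control 1 (226171) are highest, and control 7 (71877) and AMPH hyper 7 (75371) are low.

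The rows with many reads fell into sets that varied together across the 14 libraries. The 89 rows with a mean of at least 1000 were taken in order of their mean, and each row not yet placed collected the unplaced rows whose log2 values had a Pearson correlation of at least 0.9 with it across the 14 libraries. This gave 7 sets of at least 3 rows, which held 69 of the 89 rows, and 20 rows outside them. The sets were formed from the values themselves, so the likeness within them is a description. Rows of a set may hold the same reads, and all values of a library share its divisor.

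The 7 leading rows (the 5 named above with ENSRNOG00000034316 and ENSRNOG00000044200) formed the first set, with correlations of at least 0.93 among them. Their summed share was 8.92, 1.90, 1.15, 15.8, 0.642, 1.45 and 9.74% of the ncRNA reads in control animals 1 to 7 and 1.84, 0.910, 3.28, 0.862, 0.833, 1.80 and 14.4% in AMPH hyper animals 1 to 7. The highest library was 24.6 times the lowest. The set made up 17.4 to 85.4% of the 5S reads of a library, with the 4 highest values in control 1, 4 and 7 and AMPH hyper 7. The row nearest to the set from outside, ENSRNOG00000047794, had a correlation of 0.82 with ENSRNOG00000055067, and the last row inside, ENSRNOG00000044200, one of 0.93.

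The second set of 13 rows was led by ENSRNOG00000056835 and was far more even. Its summed share was 2.49, 2.24, 3.06, 1.53, 1.13, 1.09 and 1.62% in control animals 1 to 7 and 2.85, 1.82, 3.10, 2.21, 1.27, 1.99 and 1.88% in AMPH hyper animals 1 to 7. The highest library was 2.85 times the lowest. Animals that were highest in the first set were not set apart here. AMPH hyper animal 7, with 14.4% in the first set, had 1.88%, and control animal 4, with 15.8%, had 1.53%. Correlations between rows of the first and the second set ran from -0.14 to 0.55 over the 14 libraries. For the leading rows of the sets, ENSRNOG00000055067 and ENSRNOG00000056835, r was 0.36 (permutation p = 0.201, adjusted p = 0.345) and rho 0.48 (permutation p = 0.0821, adjusted p = 0.197). Within the 10 libraries outside the 4 with the highest share of ENSRNOG00000055067, r between these leading rows was 0.92 and rho 0.94 in normalized counts. On this scale their low correlation over the 14 thus depends on including those 4, which were ranked by share and not by normalized count. As shares over the 14 libraries r was 0.10 and rho 0.43. Without the 2 animals farthest from the median of ENSRNOG00000055067 they were 0.39 and 0.70. Shares within the 10 were not examined. For ENSRNOG00000044200 and ENSRNOG00000056835, r in normalized counts was 0.06 over the 14 libraries (permutation p = 0.851, adjusted p = 0.904), rho was 0.19 (permutation p = 0.511, adjusted p = 0.622), and r was 0.42 within the 10. The correlation of the last row inside, ENSRNOG00000035854, with ENSRNOG00000056835 was 0.91 and that of the nearest row outside, ENSRNOG00000035293, was 0.89, so that this border is less sharp than that of the first set.

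Row ENSRNOG00000056835 itself had a mean normalized count of 139686 ± 67815 (SD, n = 7) in control animals and 162500 ± 64546 (SD, n = 7) in AMPH hyper animals (log2 fold change 0.30, SE 0.45, limma, adjusted p = 0.880; exact permutation p = 0.453, two-sided). The 13 rows, among them ENSRNOG00000036145 and ENSRNOG00000034597, had log2 fold changes from 0.08 to 0.53 and a smallest adjusted p of 0.767 (limma). Rows ENSRNOG00000034772 and ENSRNOG00000034799, the next in the set, had reads in a ratio of 0.996 to 0.999 in every library and log2 fold changes of 0.41 each. These 2 rows cannot be taken as 2 measurements.

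The largest set by number held 29 rows led by ENSRNOG00000034535, with mean normalized counts from 1157 to 5075. Its summed share was 0.365, 0.0643, 0.163, 0.0433, 0.0619, 0.0683 and 0.102% in control animals 1 to 7 and 0.440, 0.150, 0.327, 0.0707, 0.0710, 0.0762 and 0.201% in AMPH hyper animals 1 to 7. The 4 highest animals were, in order, AMPH hyper 1, control 1, AMPH hyper 3 and AMPH hyper 7. Of these, control 1 and AMPH hyper 7 were also high in the first set. The log2 fold changes of the 29 rows all lay between 0.59 and 0.98, with a median of 0.79, and none passed the threshold (smallest adjusted p = 0.741, limma). Since the rows rise and fall together, their common sign is that of a single pattern across animals and not of 29 observations.

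The fourth set described, 9 rows led by ENSRNOG00000035293, was highest in control animals 3 and 2. Its summed share was 0.377, 0.836, 1.25, 0.304, 0.108, 0.168 and 0.367% in control animals 1 to 7 and 0.569, 0.268, 0.573, 0.294, 0.319, 0.213 and 0.197% in AMPH hyper animals 1 to 7. The log2 fold changes of the 9 rows lay between -0.43 and 0.11. The 3 smaller sets were led by ENSRNOG00000034503 (3 rows), ENSRNOG00000047794 (3 rows) and ENSRNOG00000050757 (5 rows), and all 3 had their highest share in control animal 1. Their shares in the 14 libraries were 0.0668 to 0.436%, 0.00996 to 0.112% and 0.00487 to 0.0373%. After control 1, the ENSRNOG00000034503 set was highest in control 4, AMPH hyper 7 and control 7, the same animals as the first set. The ENSRNOG00000047794 and ENSRNOG00000050757 sets were next highest in control 7 and AMPH hyper 7.

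**Figure D3:**
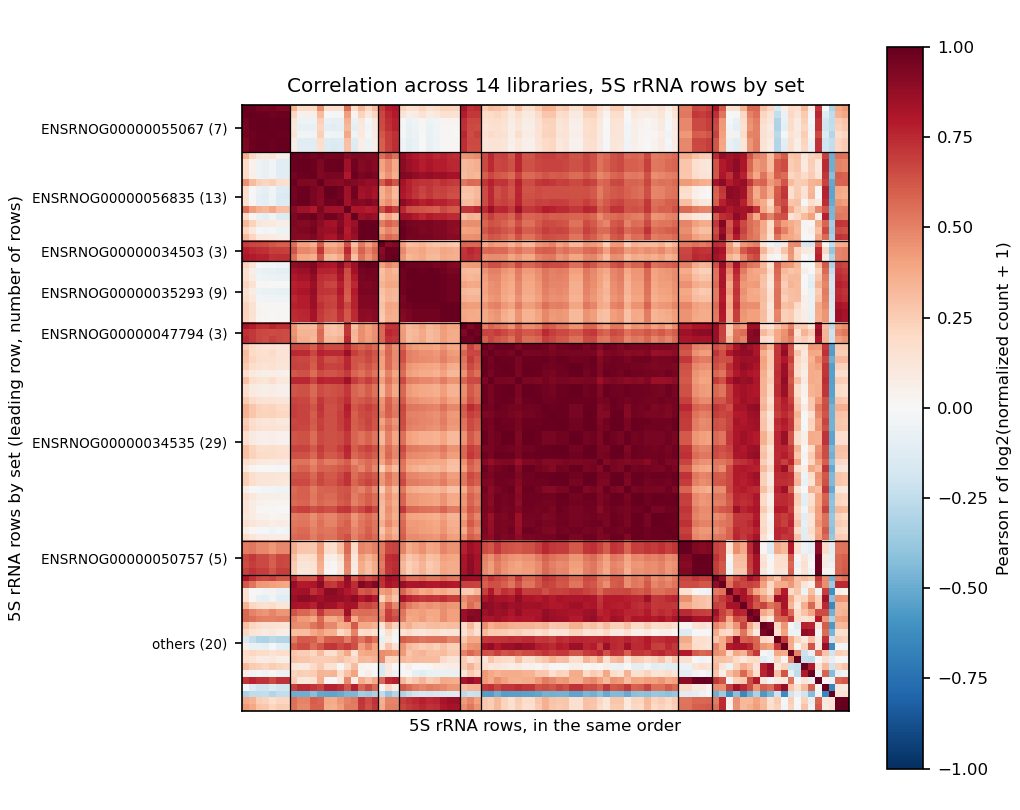
Colours show the Pearson correlation of log2(normalized count + 1) across the 14 libraries between the 89 5S rRNA rows with a mean of at least 1000, ordered alike on both axes, with black lines between the sets and the leading row and number of rows of each set at the left. The square of the 7 leading rows is pale against the 13 rows of the ENSRNOG00000056835 set, where r runs from -0.14 to 0.55.

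Within the first set the rows did not keep a fixed ratio. Reads of ENSRNOG00000044200, the seventh row, were 0.673, 0.866, 0.838 and 0.854 of those of ENSRNOG00000055067 in control 1, 4 and 7 and AMPH hyper 7. In the other 10 libraries the ratio ran from 0.119 in AMPH hyper 4 to 0.497 in control 6. The ratio of ENSRNOG00000044200 to the sixth row, ENSRNOG00000034316, stayed between 0.921 and 1.00. Row ENSRNOG00000044200 varied most of the 7, with a highest normalized count 68.0 times the lowest, compared with 16.4 times for ENSRNOG00000055067.

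The reads that ENSRNOG00000055067 held beyond ENSRNOG00000044200 followed the second set. This difference was 0.162 to 0.521% of the ncRNA reads, and it was 1.02 to 1.34 times the reads of ENSRNOG00000056835 in each of the 14 libraries. Across the 14 libraries the Pearson correlation of the difference with ENSRNOG00000056835, both as shares, was 0.96, and that of ENSRNOG00000044200 with ENSRNOG00000056835 was -0.03. These relations were chosen after the values were seen and are descriptions.

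**Figure D4:**
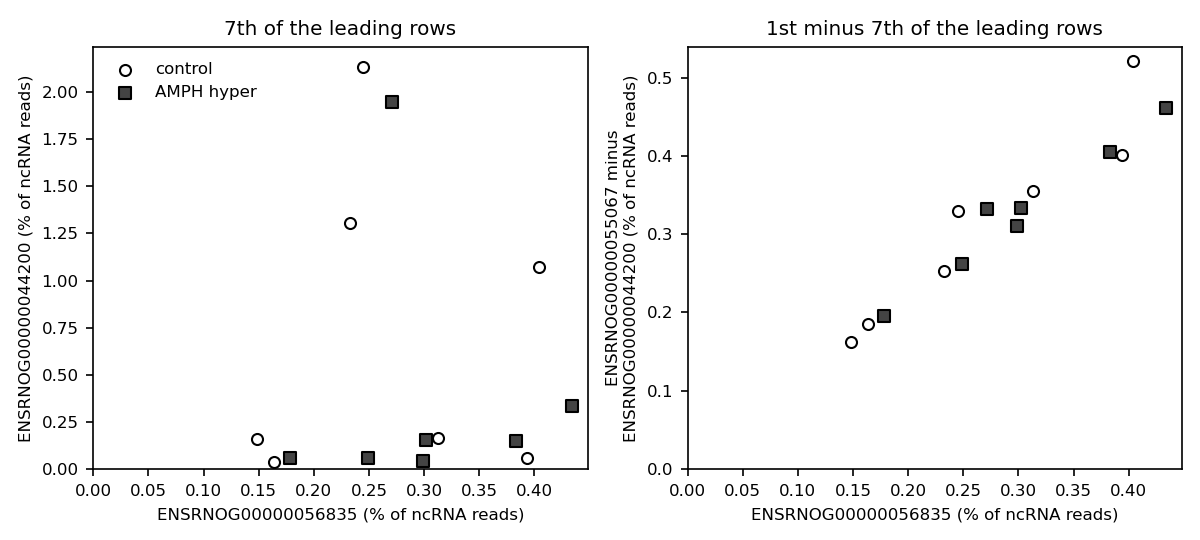
Each point is a library, open circles for control and filled squares for AMPH hyper, with the share of ENSRNOG00000056835 (percent of ncRNA reads) on the horizontal axis. The share of ENSRNOG00000044200 (left, percent) ranges from 0.0357 to 2.13% (r = -0.03), whereas ENSRNOG00000055067 minus ENSRNOG00000044200 (right, percent) rises with it from 0.162 to 0.521%.

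Between the groups, none of the 287 rows was called. The filter of a mean normalized count of at least 10 passed 267 rows, and 20 were not tested. Of the 267, 0 passed an adjusted p of 0.05 in limma, where 0.130% of all 8454 ncRNA rows tested did (11 rows), and the smallest adjusted p of a 5S row was 0.577. The count over all rows was unstable, with 0 called in 10 of the 14 fits without an animal, 33 without AMPH hyper 2, and 0 with the replicate block. The edgeR quasi-likelihood test and DESeq2 on the recovered reads also called 0 of the 267, where they called 0.189% and 0.757% of all rows. An unadjusted p under 0.05 was found for 9 5S rows in limma (3.37%), 14 in edgeR (5.24%) and 16 in DESeq2 (5.99%), beside 6.92%, 9.03% and 8.59% of all rows. This count depended on the animals and the fit, being 40 (15.0%) without control animal 1, beside 7.39% of all rows, and 43 (16.1%) with the replicate block, beside 7.16%. In limma, 7 of the 267 (2.62%) were higher in the AMPH hyper group, against 3.23% of all rows, and 2 (0.749%) were lower, against 3.69%. No 5S row had groups that did not overlap, which was so for 0.142% of all rows.

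The median log2 fold change of the 267 rows was 0.09, beside -0.05 over all rows, with 146 above 0 and 121 below. It was -0.01 when libraries were scaled to their ncRNA reads or to their mature miRNA reads, so that the sign of the median rests on the scaling. The middle part of the rows, between the lower and the upper quartile, lay between -0.56 and 0.64. The spread was widest for rows of few reads.

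The tested rows with the largest and the smallest log2 fold changes were rows of few reads. Row ENSRNOG00000047373 had reads in all 7 AMPH hyper animals (42 reads) and in 4 of 7 control animals (45 reads), with a log2 fold change of 2.67 (SE 1.26, limma, adjusted p = 0.710; exact permutation p = 0.115, two-sided). The total reads of the groups were close, and 3 control animals were listed at 0. Its log2 fold change was 0.19 in edgeR and 0.26 in DESeq2, so that the size of the limma value rests on the scale. Row ENSRNOG00000041652 had 1 read in the control group and 13 reads in 4 AMPH hyper animals, a ratio of 14.0 per ncRNA read (95% exact interval 2.10 to 593, counting error only). Its log2 fold change was 2.62 (SE 1.44, limma, adjusted p = 0.741) and 3.00 in edgeR. The row was chosen for its large fold change and passed the filter only through the AMPH hyper group. Of its 13 reads, 6 were in AMPH hyper 4 and 5 in AMPH hyper 7, so the interval is no test of the groups.

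On the lower side, ENSRNOG00000044940 had 8 reads in 5 control animals and 3 reads in 1 AMPH hyper animal, a ratio of 0.403 (95% exact interval 0.0688 to 1.68, counting error only). Its log2 fold change was -2.66 (SE 1.28, limma, adjusted p = 0.721) and -1.25 in edgeR. This row was likewise chosen for its fold change, and it passed the filter only with the reads of both groups. Row ENSRNOG00000044867 had 39 reads in 6 of 7 control animals and 11 reads in 4 of 7 AMPH hyper animals (log2 fold change -2.52, SE 1.35, limma, adjusted p = 0.741). All 7 AMPH hyper animals were below the control median. The fitted fold changes of these 4 rows depend on the value added before the logarithm.

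**Figure D5:**
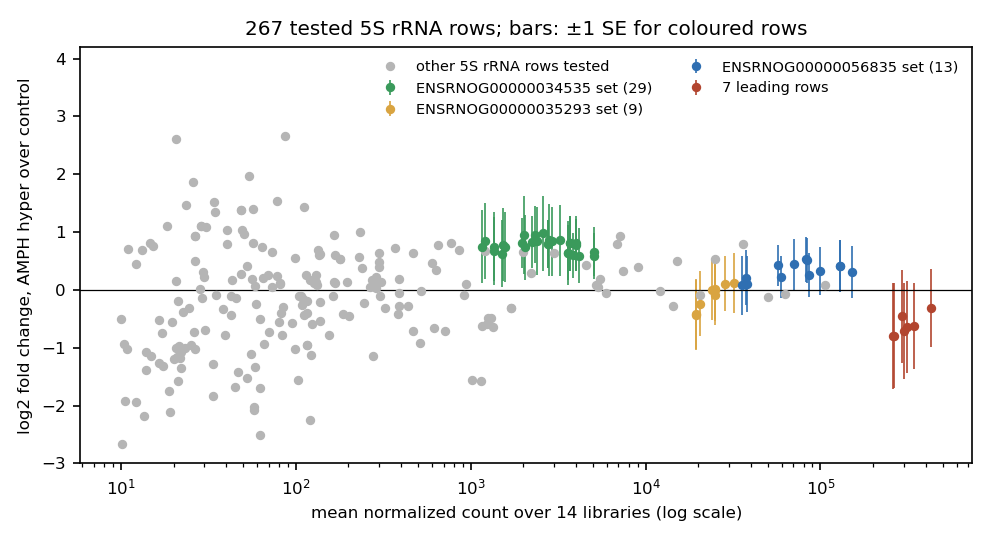
Each point is 1 of the 267 tested 5S rRNA rows, with the mean normalized count over 14 libraries on the horizontal log axis and the log2 fold change of AMPH hyper over control on the vertical axis; bars are 1 SE and are drawn for the coloured sets. The 7 leading rows lie between -0.80 and -0.31 and the 29 rows of the ENSRNOG00000034535 set between 0.59 and 0.98, and no row passed the threshold.

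Other ribosomal and mitochondrial entries of the table fall outside the search and serve here for comparison. Row Rn5-8s (ENSRNOG00000059852), named for 5.8S rRNA, the small rRNA cut from the RNA polymerase I precursor, had the same values as 6 further rows. It took 0.227 to 2.26% of the ncRNA reads in control animals and 0.231 to 1.26% in AMPH hyper animals (log2 fold change -0.28, SE 0.75, limma, adjusted p = 0.932). A row named Rn5s (ENSRNOG00000050259) took 0.0939 to 0.416% of the ncRNA reads, and it is not in the sums of the searched rows. The 24 rows named after AY172581, a sequence record of the rat mitochondrial genome, together took 0.399 to 1.04% in control animals and 0.448 to 1.21% in AMPH hyper animals. Of these 24 rows 0 passed the threshold in limma and 1 had an unadjusted p under 0.05, beside 6.92% of all rows. Log2 fold changes above 0 were found for 20 of the 24 (median 0.30), beside 3923 of all 8454 rows (median -0.05). The 24 rows belong to 1 sequence record and are not 24 separate observations.

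The leading 5S rows were compared with these rows across animals. Correlations of log2 normalized counts over the 14 animals were computed for 12 pairs chosen after earlier values were known. Row ENSRNOG00000056835 rose with Rn5-8s, with Pearson's r of 0.89 (permutation p = 8.00e-05, adjusted p = 0.00048) and Spearman's rho of 0.85 (permutation p = 0.00036, adjusted p = 0.00152). Within groups r was 0.96 in control (exact permutation p = 0.00437) and 0.92 in AMPH hyper animals (exact permutation p = 0.00437), and without the 2 animals farthest from the median of ENSRNOG00000056835 it was 0.84. As shares of ncRNA reads, r was 0.62 and rho 0.73. Shares drop the divisor of the normalized counts but have another in common, the ncRNA reads of the library.

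Row ENSRNOG00000035293 had an r of 0.89 with Rn5-8s (permutation p = 4.00e-05, adjusted p = 0.00048) and a rho of 0.85 (permutation p = 0.00022, adjusted p = 0.00152). Within groups r was 0.91 in control and 0.87 in AMPH hyper animals (exact permutation p = 0.00833 and 0.0147), it was 0.80 without the 2 farthest animals, and as shares it was 0.78. Row ENSRNOG00000034535 had an r of 0.43 (permutation p = 0.119, adjusted p = 0.286) and a rho of 0.39 (permutation p = 0.170, adjusted p = 0.292), and an r of 0.32 without the 2 farthest animals. In the first set, ENSRNOG00000044200 had an r of 0.04 with Rn5-8s (permutation p = 0.904, adjusted p = 0.904) and a rho of 0.19 (permutation p = 0.518, adjusted p = 0.622), and -0.29 without the 2 farthest animals. Row ENSRNOG00000055067 had an r of 0.30 (permutation p = 0.293, adjusted p = 0.440) and a rho of 0.40 (permutation p = 0.159, adjusted p = 0.292). Within groups r was 0.53 in control and -0.37 in AMPH hyper animals for ENSRNOG00000055067 (exact permutation p = 0.217 and 0.479), and 0.26 and -0.49 for ENSRNOG00000044200 (exact permutation p = 0.558 and 0.345). As shares over the 14 libraries, r with Rn5-8s was -0.01 (rho 0.34) for ENSRNOG00000055067, -0.10 (rho 0.10) for ENSRNOG00000044200 and 0.15 (rho 0.16) for ENSRNOG00000034535. Within the 10 libraries outside the 4 with the highest share of ENSRNOG00000055067, its r with Rn5-8s in normalized counts was 0.82, beside 0.88 for ENSRNOG00000056835. By normalized count, the scale of these correlations, AMPH hyper 3 of the 10 (511238) stood above control 7 of the 4 (482000). The difference between these correlations was not tested.

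With Rn5s, r was 0.81 for ENSRNOG00000055067 (permutation p = 0.0002, adjusted p = 0.0008; rho 0.82, permutation p = 0.00062, adjusted p = 0.00186) and 0.76 for ENSRNOG00000056835 (permutation p = 0.00204, adjusted p = 0.00612; rho 0.84, permutation p = 0.00038, adjusted p = 0.00152). Within the AMPH hyper group r was 0.64 and 0.62 (exact permutation p = 0.170 and 0.119), and within control 0.87 and 0.83 (exact permutation p = 0.00913 and 0.0282). Without the 2 farthest animals r was 0.78 and 0.67. As shares r was 0.75 (rho 0.85) for ENSRNOG00000055067 and 0.53 (rho 0.60) for ENSRNOG00000056835. By its name Rn5s is a row of the same rRNA as ENSRNOG00000055067 and ENSRNOG00000056835. Short reads may thus be counted on Rn5s and on these rows at once, which was not tested. The correlations with Rn5s and their p-values are therefore not a comparison with a row known to be independent. With AY172581.15, the highest mitochondrial row, r was -0.04 for ENSRNOG00000055067 and 0.37 for ENSRNOG00000056835 (permutation p = 0.904 and 0.191, adjusted p = 0.904 and 0.345; rho -0.13 and 0.29, permutation p = 0.662 and 0.315). As shares the second value was -0.48, so that its sign rests on the scale.

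The leading row was also set beside the depth of the libraries. The r of ENSRNOG00000055067 with log2 of the ncRNA reads of a library was 0.08 (permutation p = 0.794, adjusted p = 0.904; rho 0.14, permutation p = 0.632, adjusted p = 0.662) and 0.30 without the 2 farthest animals. The 4 libraries high in the leading row included the 2 deepest, AMPH hyper 7 with 4417124 ncRNA reads and control 7 with 4017262, and also control 1 with 1960725, the third lowest.

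Of the list of RNAs that process rRNA and tRNA, 1 was present by name, Rmrp, the RNA of RNase MRP, which cuts the precursor of 5.8S rRNA. Its normalized count was 2703 to 4171 in control animals, with a median of 3308, and 2352 to 6190 in AMPH hyper animals, with a median of 4622. The groups overlapped, and the log2 fold change was 0.39 (SE 0.22, limma, adjusted p = 0.741; exact permutation p = 0.0717, two-sided).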

How the data were processed

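Small RNA of whole blood was sequenced from 7 control and 7 AMPH hyper animals. All library titles carry the mark L8, which is not explained in the sources used here. The authors deposited signal values: the reads of a row over the upper quartile of all counts in its library, times 1000. Of the ncRNA and mature miRNA values, 100% were whole multiples of 1 read (within 0.02), and reads were recovered. The submitters' processing notes name Bowtie; genome, annotation and the treatment of reads that fit several rows are not given in the sources used here.

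Values were tested with limma 3.58.1 in R 4.3.3 (lmFit, eBayes with trend) on log2(normalized count + 1) over all ncRNA rows with a mean of at least 10, with Benjamini-Hochberg adjustment, two-sided, threshold 0.05. Permutation tests used all 3432 divisions of the animals, or 100000 draws for correlations over 14. Alternatives included edgeR 4.0.16 and DESeq2 1.42.0 on recovered reads. The limma fit was run on simulated data.

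Named were the 5 highest rows, every row past the threshold and the 2 tested rows with the largest and the smallest fold change; the sets, their leading rows, ENSRNOG00000034316, ENSRNOG00000044200 and the next rows of the second set were chosen after their values were seen. The members and lists were chosen with earlier results of these data known. Planned classes of mitochondrial and other rRNA rows were empty. Intervals cover counting error only.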

Additional observations from a re-analysis of the deposited data

Results flagged for a closer look

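In 46 groups of 7 animals that were examined for an animal far from the rest by Dixon's test, 3 were found. Chance would give about 2.3 in independent groups with a normal spread. Rows with many zeros and rows that vary together do not meet this, so the numbers cannot be compared. All 3 concerned rows of few reads. Control animal 3 had a normalized count of 17.2 for ENSRNOG00000041652, which is 1 read, while the other 6 control animals were at 0. AMPH hyper animal 7 had 18.9 for ENSRNOG00000044940, which is 3 reads, while the other 6 AMPH hyper animals were at 0. With 6 animals at 0, any read in the remaining animal is flagged. Control animal 6 was at 0 for ENSRNOG00000044867, where the other 6 control animals had reads.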

How the results depend on the processing

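The count of 5S rows past the threshold was 0 in limma and in each of its 29 alternatives, among them the replicate block, in which it was 0. The numbers did not pair the animals, since the correlations of same-numbered animals ran from -0.0217 to 0.231. The count at an unadjusted p under 0.05, 9 in limma (3.37%, beside 6.92% of all rows), was 43 with the replicate block (16.1%, beside 7.16%), 14 in edgeR, 16 in DESeq2, 3 when scaled to mature miRNA reads, and 5 to 40 when an animal was left out (40 without control 1, 15.0% beside 7.39%, 20 without AMPH hyper 5, 5 without control 2). The log2 ratio of the summed 5S share was -0.30 and moved by less than the spread among animals in all 23 alternatives, from -0.57 to 0.22, with -0.14 without control 1, -0.07 without control 4, -0.15 without control 7 and -0.14 without AMPH hyper 5. The replicate block cannot move this ratio, and 0.22 was reached without the libraries highest in the leading row.

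For the 18 rows followed through the alternatives (those chosen by the naming rule and the leading rows of 4 sets with the next ones of the first 2), 504 of 520 alternatives kept the sign and none passed the threshold. In 16 of the 520 the sign changed. The other filters, limma without trend, robust eBayes and the replicate block cannot move a fold change. The count of kept signs is therefore no measure of stability. Without the 4 libraries highest in the leading row, an alternative added after the data were seen, the log2 fold changes became 0.52, 0.36, 0.48, 0.45, 0.72, 0.49 and 0.50 for the 7 leading rows in order of mean. The 4 were chosen by the leading row and held more control than AMPH hyper animals, so this shift follows from the choice. With an animal left out, the log2 fold change of ENSRNOG00000055067 ran from -0.60 to 0.069 and that of ENSRNOG00000060018 from -0.82 to 0.051, both above 0 without control 4. In edgeR and DESeq2 that of ENSRNOG00000055067 was -0.80 and -0.81, that of ENSRNOG00000060018 -1.15 and -1.17, and that of ENSRNOG00000047373, 2.67 in limma, 0.19 and 0.26. With control 3 counted as AMPH hyper, those of ENSRNOG00000055067, ENSRNOG00000060018 and ENSRNOG00000044200 were -0.52, -1.04 and -1.41, and the log2 ratio of the share of the ENSRNOG00000035293 set went from -0.17 to 0.37. Under quantile normalization that of ENSRNOG00000034597 became -0.11. That of ENSRNOG00000035293, 0.11, became -0.16 in edgeR, -0.13 in DESeq2 and -0.18 to 0.37 with an animal left out, below 0 without control 5, 6 or 7 or AMPH hyper 3. The cause was not tested. Rows of few reads limit what can be shown, since 1 read was worth up to 47.6 normalized counts.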
